A study of Mus musculus with 12 samples.

Results

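The genes described here are 10 receptor and adaptor genes of natural killer (NK) cells, found by symbol among the 45706 genes of a read-count table of murine T cells. They are 7 receptors (Ncr1, Klrb1c, Klrd1, Klrk1, Klrc1, Klre1 and Klra8), the adaptors Tyrobp and Fcer1g, and the Fc receptor Fcgr3. All 10 were among the 15922 genes that passed the filter on low counts, and each had at least 10 reads in every library. Polyadenylated RNA of conventional (con) and regulatory (Trg) T cells of WT and Coro1-/- mice was sequenced from 3 libraries a group, 12 in all. The 4 groups are thus WT_con, KO_con, WT_Trg and KO_Trg, where KO stands for Coro1-/-, the loss of the actin-binding protein coronin 1A. The strain, age, treatment and sort gates of the mice and cells are not given in the sources used here, nor is whether the 3 libraries of a group came from separate animals, so each p-value measures only the spread between libraries. Gene counts ran from 19686870 to 33404302 a library.

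NK cells are killer lymphocytes that read the balance of activating and inhibitory surface receptors. Many of the receptors are lectin-like proteins encoded side by side in the NK gene complex, and most activating ones have no signalling tail of their own. They pair with small adaptors such as DAP12 (Tyrobp), the Fc receptor gamma chain (Fcer1g), CD3 zeta (Cd247) or DAP10 (Hcst), which pass the signal to kinases. Some T cells, among them NKT cells and stimulated CD8 T cells, also carry several of the lectin-like receptors. Tyrobp, Fcer1g and Fcgr3 are not NK-specific, since macrophages, neutrophils and other myeloid cells use them too.

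The labels were checked first. Coro1a stood at 2294 ± 149 CPM (reads scaled to library size; SD, n = 3) in WT_con and 45.1 ± 1.82 in KO_con, and at 2508 ± 200.3 in WT_Trg and 26.7 ± 5.07 in KO_Trg. Foxp3, which marks regulatory T cells, averaged 23.7 and 50.05 CPM in WT_con and KO_con and 520 and 573 CPM in WT_Trg and KO_Trg. Transcripts of other cell types were present: 8 B cell genes summed to 3428 to 4725 CPM in the 6 Trg libraries and to 3.07 to 45.1 CPM in the 6 con libraries. The 6 T cell genes used for a scaling alternative (Lat, Cd6, Cd5 and the 3 CD3 chain genes Cd3d, Cd3e and Cd3g) summed to 3062 to 3351 CPM in WT_con, 1948 to 2315 in KO_con, 1683 to 2322 in WT_Trg and 1083 to 1662 in KO_Trg. Replicate 3 of WT_Trg and replicate 1 of KO_Trg held reads of both Xist and Y-linked genes, which were not found together at 10 CPM or more in the other 10 libraries. Each con group had 2 libraries with Xist alone and 1 with Y-linked reads alone, and each Trg group had 2 with Y-linked reads alone, so the con and Trg groups were not balanced for sex. Reads tallied as matching no gene made up 13.3 to 15.7% of the con libraries and 4.98 to 6.87% of the Trg libraries. Multimapping reads made up 9.25 to 11.1% of the con libraries and 15.8 to 19.5% of the Trg libraries. The part of these differences in any comparison between con and Trg was not tested.

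Of the receptor genes, 6 lie within 1.35 Mb on chromosome 6 (GRCm38, 128778485 to 130129898), in the NK gene complex: Klrb1c, Klre1, Klrd1, Klrk1, Klrc1 and Klra8. Ncr1 (7:4337724-4345164) and Tyrobp (7:30413760-30417585) are on chromosome 7, while Fcer1g (1:171229572-171234365) and Fcgr3 (1:171051174-171064935) are on chromosome 1. RefSeq promoter windows of GRCm38.p6 matched 8 of the 10 genes and not Klrd1 or Tyrobp. The 250 bases before the RefSeq start of 5 of them are shown, 5′ to 3′ on the gene's strand: 3 receptor windows with the RUNX motif, the receptor Klra8 without it and the adaptor Fcer1g without it. Capitals mark TGTGGT or its reverse complement ACCACA, the core motif of the RUNX factors, which act in NK and T cell development. The windows are chr7:4337465-4337714 (+) for Ncr1, chr6:128788642-128788891 (-) for Klrb1c, chr6:129623865-129624114 (-) for Klrk1, chr6:130129899-130130148 (-) for Klra8 and chr1:171234350-171234599 (-) for Fcer1g.
Ncr1: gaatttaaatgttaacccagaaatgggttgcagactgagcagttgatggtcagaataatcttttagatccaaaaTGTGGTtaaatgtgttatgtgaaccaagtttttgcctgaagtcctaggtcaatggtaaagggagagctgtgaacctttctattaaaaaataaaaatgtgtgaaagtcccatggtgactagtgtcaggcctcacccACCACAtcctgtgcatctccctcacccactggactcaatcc
Klrb1c: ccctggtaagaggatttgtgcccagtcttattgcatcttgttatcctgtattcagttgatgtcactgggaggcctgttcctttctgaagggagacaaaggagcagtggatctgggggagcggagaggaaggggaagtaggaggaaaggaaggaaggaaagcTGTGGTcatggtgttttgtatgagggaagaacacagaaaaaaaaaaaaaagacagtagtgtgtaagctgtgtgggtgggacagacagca
Klrk1: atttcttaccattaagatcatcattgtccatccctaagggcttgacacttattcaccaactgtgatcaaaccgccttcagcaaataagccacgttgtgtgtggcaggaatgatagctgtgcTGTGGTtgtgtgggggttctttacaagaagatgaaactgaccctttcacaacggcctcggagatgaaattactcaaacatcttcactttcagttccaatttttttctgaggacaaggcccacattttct
Klra8: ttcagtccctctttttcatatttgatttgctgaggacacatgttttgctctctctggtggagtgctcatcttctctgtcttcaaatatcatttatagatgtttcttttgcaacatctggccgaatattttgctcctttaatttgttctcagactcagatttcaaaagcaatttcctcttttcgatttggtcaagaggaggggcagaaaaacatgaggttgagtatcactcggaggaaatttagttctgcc
Fcer1g: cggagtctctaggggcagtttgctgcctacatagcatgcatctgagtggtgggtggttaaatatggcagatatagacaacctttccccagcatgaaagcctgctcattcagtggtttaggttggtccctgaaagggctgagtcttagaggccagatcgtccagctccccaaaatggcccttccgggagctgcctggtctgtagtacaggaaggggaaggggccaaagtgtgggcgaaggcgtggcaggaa

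The RUNX motif was found in 5 of the 8 windows, against 14.2% of 27026 promoter windows of the same length. Ncr1 had 2 matches, starting 176 and 41 bases before the RefSeq start. Klrb1c had a match 89 bases before its RefSeq start, Klrk1 129, Klrc1 87 and Klre1 229. RefSeq and GENCODE starts can differ, and the windows of Klrb1c, Klre1 and Fcgr3 lie inside the gene spans that GENCODE gives. No match stood in the windows of Klra8, Fcer1g and Fcgr3. The T-box motif GTGTGA, searched on both strands like the others, was in the window of Ncr1 alone (12.2% of all windows). The PU.1 motif GAGGAA was in those of Klrb1c, Klra8 and Fcgr3 (23.1% of all windows), and the STAT motif TTCNNNGAA was in none of the 8 (7.18% of all windows). These matches describe the letters of each window only.

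In conventional T cells, all 10 genes rose in Coro1-/-, from 1.49 to 6.04 on the log2 scale, and no KO_con library overlapped a WT_con library for any of them. The share of all genes without such overlap was not counted, here or in the other comparisons. Over all genes tested, 48.7% were called, 23.3% as higher and 25.4% as lower (edgeR's quasi-likelihood test, Benjamini-Hochberg adjusted p under 0.05) and the median log2 fold change was -0.05, against a median of 2.85 over the 10 genes. The rises were largest for Klra8, Ncr1 and Klre1, each under 2 CPM in WT_con. They were smallest for the CD94 and NKG2A pair, Klrd1 and Klrc1. In bulk RNA, more cells of a type and more RNA per cell cannot be told apart. Each of the 10 calls held in all 24 alternative settings tried.

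Ncr1 encodes NKp46, an activating natural cytotoxicity receptor that signals through Fcer1g and CD3 zeta. It stood at 0.975, 0.717 and 0.384 CPM in the 3 WT_con libraries and at 33.7, 27.8 and 59.7 CPM in KO_con. WT_con held 29, 22 and 12 reads of it, and the lowest KO_con library was far above the highest of these. This was a 58.3-fold difference (log2 5.86, SE 0.35, adjusted p = 1.53e-06).

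Klra8 encodes Ly49H, an activating receptor for a cytomegalovirus protein that signals through DAP12 and is lacking in several inbred strains. Its WT_con values were 0.336, 0.587 and 0.416 CPM, from 10, 18 and 13 reads, and its KO_con values 27.6, 19.2 and 42.5 CPM. The groups stood apart, and the estimate was the highest of the 10 genes (log2 6.04, SE 0.42, adjusted p = 2.97e-06). Reads of Klra8 and of its relatives may be mixed up, since 33.1% of its 50-base stretches also occur in transcripts of other genes, 20.4% in Klra14-ps.

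Klre1 encodes a lectin-like receptor chain that pairs with the products of Klri1 and Klri2. It measured 1.45, 1.01 and 1.12 CPM in WT_con against 25.2, 17.2 and 35.9 CPM in KO_con. The 3 WT_con libraries were close together at low counts, and the difference was 21.9-fold (log2 4.45, SE 0.43, adjusted p = 1.83e-05). Its partners also rose: Klri2 by 4.995 (SE 0.39, adjusted p = 5.34e-06) and Klri1, named after its value was seen, by 3.59 (SE 0.56, adjusted p = 0.000373) on the log2 scale. Klri1 had few reads, 9 in all of WT_con and 128 in all of KO_con.

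Klrk1 encodes NKG2D, an activating receptor for stress-induced ligands, and Klrb1c encodes NK1.1, the activating NKR-P1C. Klrk1 stood at 12.7, 9.71 and 8.10 CPM in WT_con and at 73.1, 55.9 and 92.1 CPM in KO_con, 7.25-fold higher (log2 2.86, SE 0.25, adjusted p = 1.01e-05). Klrb1c stood at 25.2, 15.1 and 12.9 CPM in WT_con and 102, 87.6 and 133 CPM in KO_con, 6.09-fold higher (log2 2.61, SE 0.37, adjusted p = 0.000208). Replicate 1 was the highest WT_con library for both, and it stayed below every KO_con library. Of the 50-base stretches of Klrb1c, 17.0% occur in other transcripts, 12.4% in Gm44511, which overlaps it on the same strand. Hcst, which encodes the NKG2D adaptor DAP10 and was named after its value was seen, was at 69.7 ± 2.89 CPM in WT_con and 49.2 ± 1.80 in KO_con. It changed by -0.50 on the log2 scale (SE 0.17, adjusted p = 0.03), and by 0.09 (adjusted p = 0.614) when the libraries were scaled to the 6 T cell genes.

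Klrd1 encodes CD94, the chain shared by the NKG2 heterodimers that read Qa-1, and Klrc1 encodes NKG2A, its inhibitory partner. Klrd1 had 26.2, 22.4 and 22.2 CPM in WT_con and 68.7, 53.9 and 76.1 CPM in KO_con, 2.81-fold higher (log2 1.49, SE 0.21, adjusted p = 0.000187). Klrc1 had 7.13, 3.45 and 3.87 CPM in WT_con and 20.3, 16.1 and 27.0 CPM in KO_con, 4.38-fold higher (log2 2.13, SE 0.41, adjusted p = 0.00138). WT_con replicate 1 was again the highest of its group for both, below every KO_con library. Klrc2, the activating NKG2C, rose by 3.59 (SE 0.34, adjusted p = 1.52e-05), and 36.6% of the 50-base stretches of Klrc1 also occur in Klrc2, so reads of this pair may be mixed up.

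The adaptors and the Fc receptor rose as well. Tyrobp had 13.3, 23.7 and 18.4 CPM in WT_con and 174, 118 and 223 CPM in KO_con, 9.28-fold higher (log2 3.21, SE 0.31, adjusted p = 1.71e-05). Fcer1g had 12.5, 20.1 and 15.6 CPM in WT_con and 111, 77.0 and 159 CPM in KO_con, 7.20-fold higher (log2 2.85, SE 0.31, adjusted p = 3.48e-05). Fcgr3, which encodes the low-affinity IgG receptor CD16, had 8.91, 15.3 and 11.7 CPM in WT_con and 73.9, 52.4 and 92.2 CPM in KO_con (log2 2.61, SE 0.35, adjusted p = 0.000132). No library of the groups overlapped for any of the 3, and 9.58% of the 50-base stretches of Fcgr3 also occur in Fcgr2b. Among WT_con libraries these 3 genes were lowest in replicate 1, the library in which 6 of the 7 receptors were highest. In KO_con, replicate 3 was highest and replicate 2 lowest for all 10 genes.

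**Figure D1:**
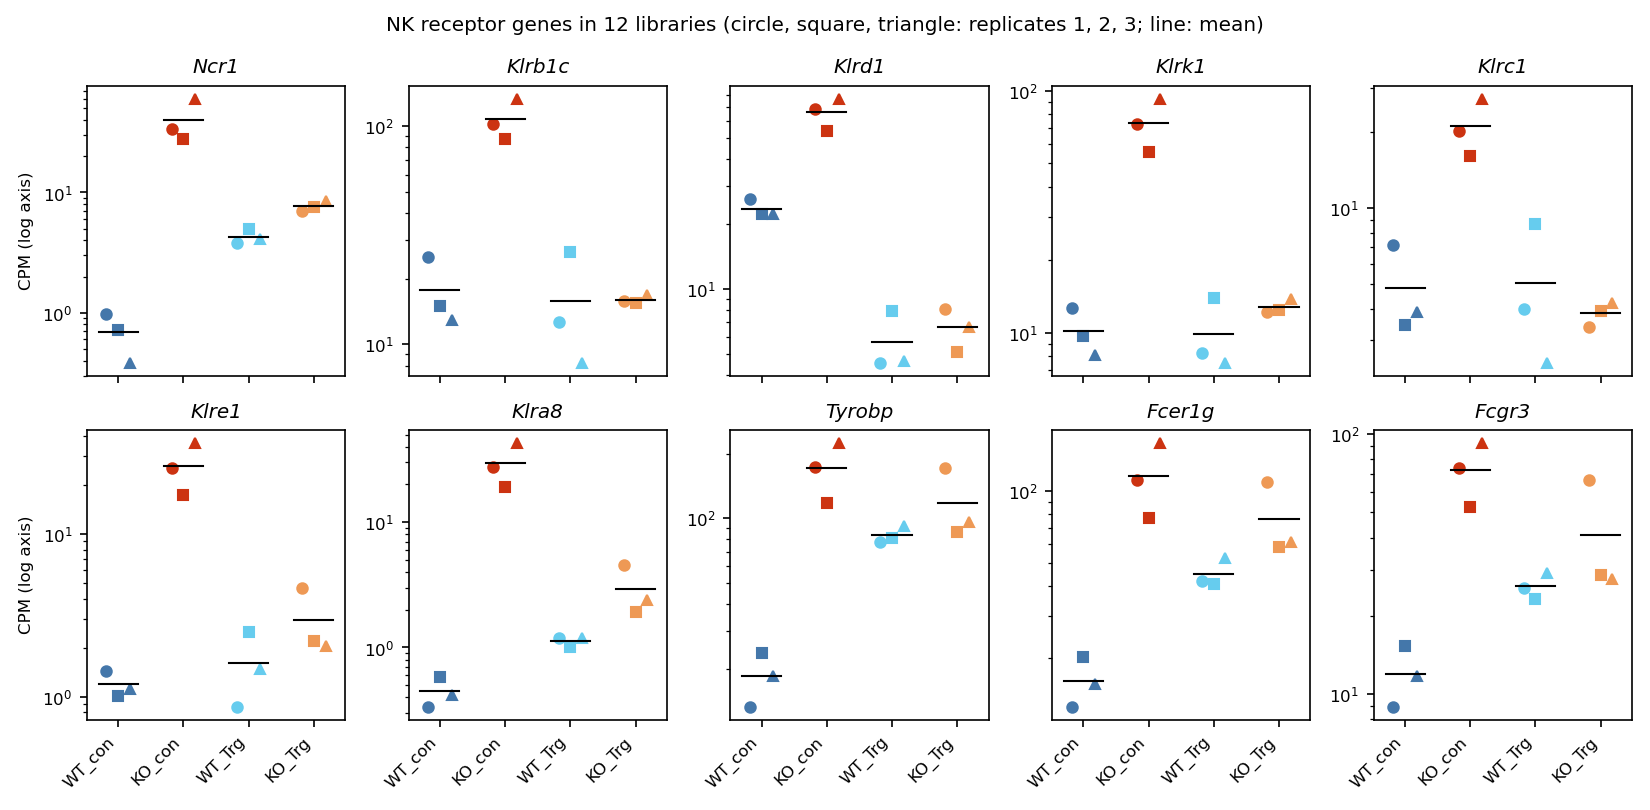
CPM on a log axis (each panel has its own range) for the 10 genes in the 12 libraries, grouped as WT_con, KO_con, WT_Trg and KO_Trg, with circle, square and triangle for replicates 1, 2 and 3 and a line at the group mean. The KO_con libraries lie above the WT_con libraries in every panel, from 27.8 to 59.7 CPM against at most 0.975 CPM for Ncr1.

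Markers of other cells moved with this comparison, in which 23.3% of all genes were called higher and 25.4% lower. The 11 NK cell marker genes that are none of the 10 summed to 52.5 to 59.7 CPM in WT_con and 199 to 401 CPM in KO_con, none was at 0 in either group, and 9 of the 10 tested rose. Of these markers, Klra4, Klra9, Klri2, Klrb1f, Gzma, Prf1, Gzmc and Eomes recur in the related lists below. The rises of the markers and of those lists are thus not separate observations. The 15 macrophage and monocyte genes summed to 449 to 705 CPM in WT_con and 2240 to 4744 CPM in KO_con, none was at 0, and all 15 rose. Neutrophil genes went from 8.90 to 16.2 CPM in WT_con to 364 to 729 in KO_con, and mast cell and basophil genes from 14.9 to 20.1 to 51.3 to 82.0. Gamma delta T cell genes went from 26.5 to 43.8 CPM to 208 to 232, and NKT and innate-like T cell genes from 131 to 192 to 255 to 263. Of the 6 NKT and innate-like T cell genes tested 5 rose and 1 fell, and Trav11d, not tested, was at 0 in KO_con. The 2 CD8 T cell genes, named after their values were seen, went opposite ways: Cd8a was at 0.175 CPM in WT_con and 0.596 in KO_con (log2 1.75, adjusted p = 0.00289), and Cd8b1 at 20.5 and 10.04 (log2 -1.03, adjusted p = 0.000269). Dendritic cell genes went from 66.6 to 71.1 CPM to 164 to 232, with 9 of 10 higher, and B cell genes from 3.07 to 4.20 to 25.1 to 45.1, with all 8 higher. The part of any of these cells in the result was not tested.

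In regulatory T cells, 1 of the 10 genes was called between genotypes, Klra8, which was 2.61-fold higher in KO_Trg. Over all genes 7.83% were called, 4.01% as higher and 3.82% as lower, so 1 of 10 is a count near the background. The median log2 fold change of the 10 genes was 0.58, against 0.00 over all genes tested. Of them 9 had a positive estimate and Klrc1 a negative one, which was 0.17 with libraries scaled to the 6 T cell genes. With that scaling, which moved the median of all genes to 0.53, 7 of the 10 genes were called higher, as were 32.1% of all genes.

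Klra8 stood at 1.19, 1.00 and 1.19 CPM in WT_Trg, from 22, 31 and 37 reads, and at 4.53, 1.90 and 2.40 CPM in KO_Trg, from 145, 63 and 79 reads. The groups did not overlap, and replicate 1 was the highest KO_Trg library (log2 1.39, SE 0.38, adjusted p = 0.0472). The call was lost in 15 of 24 alternative settings, among them the fit without the 2 libraries that held both Xist and Y-linked reads. Ncr1 also had no overlap, with 3.79, 4.94 and 4.12 CPM in WT_Trg and 7.03, 7.59 and 8.47 in KO_Trg, but it missed the threshold (log2 0.84, SE 0.29, adjusted p = 0.0956). Klre1, with 0.866, 2.49 and 1.48 CPM in WT_Trg and 4.62, 2.21 and 2.04 in KO_Trg, overlapped (log2 0.83, SE 0.42, adjusted p = 0.234).

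For the 4 other receptors the Trg libraries of both genotypes overlapped. Klrb1c measured 12.7, 26.6 and 8.24 CPM in WT_Trg and 15.7, 15.4 and 16.9 CPM in KO_Trg (log2 0.01, SE 0.36, adjusted p = 0.992). Klrk1 measured 8.23, 13.9 and 7.54 CPM in WT_Trg and 12.2, 12.5 and 13.8 CPM in KO_Trg (log2 0.37, SE 0.25, adjusted p = 0.377). In both, WT_Trg replicate 2 was the high library of its group, as it was for Ncr1, Klrd1, Klrc1 and Klre1. Klrd1 measured 4.55, 7.88 and 4.64 CPM against 8.09, 5.11 and 6.68 CPM (log2 0.20, SE 0.23, adjusted p = 0.608), and Klrc1 4.01, 8.66 and 2.45 against 3.37, 3.93 and 4.22 CPM (log2 -0.40, SE 0.41, adjusted p = 0.578).

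Of the adaptors, Tyrobp measured 77.8, 80.8 and 92.1 CPM in WT_Trg and 171, 86.6 and 95.9 CPM in KO_Trg (log2 0.49, SE 0.28, adjusted p = 0.297). Fcer1g measured 42.0, 40.9 and 52.4 CPM in WT_Trg and 109, 58.3 and 61.1 CPM in KO_Trg, with no overlap (log2 0.75, SE 0.29, adjusted p = 0.129). Fcgr3 measured 25.7, 23.1 and 29.1 CPM in WT_Trg and 66.5, 28.7 and 27.7 CPM in KO_Trg (log2 0.66, SE 0.33, adjusted p = 0.23). Of the KO_Trg libraries, replicate 1 stood high for all 3, and its 15 macrophage and monocyte genes summed to 3363 CPM against 1526 and 1593 in the other KO_Trg libraries and 1457 to 1824 in WT_Trg. None of those 15 genes was called between the Trg groups, where 4.01% of all genes were called higher and 3.82% lower. Neutrophil genes summed to 64.6 to 122 CPM in WT_Trg and 128 to 310 in KO_Trg, with 4 of 13 higher, and mast cell and basophil genes to 14.5 to 24.2 and 51.0 to 62.8, with 3 of 8 higher. The 11 NK cell markers summed to 47.2 to 61.4 CPM in WT_Trg and 80.1 to 88.2 in KO_Trg, with 2 of 10 called higher, and the part of these cells in the values of the 10 genes was not tested.

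The effect of the genotype differed between the cell types for all 10 genes. The test of that difference (the log2 fold change in Trg minus the one in con, in the fit of all 12 libraries) was below 0 and passed for each of them, against 12.4% of all genes called lower, 8.86% called higher and 21.3% called in all. The median difference was -2.56. It was greatest for Ncr1 (-5.03, SE 0.45, adjusted p = 0.000125) and Klra8 (-4.66, SE 0.57, adjusted p = 0.000411), and smallest in size for Klrd1 (-1.29, SE 0.31, adjusted p = 0.0135) and Fcgr3 (-1.95, SE 0.47, adjusted p = 0.0136). The calls for Klrd1 and Fcgr3 were lost with libraries scaled to the 6 T cell genes (adjusted p = 0.111 and 0.0934) and with a 1.5-fold minimum (0.0865 and 0.0557). At a threshold of 0.01 those of Klrd1, Fcgr3 and Klrc1 (adjusted p = 0.0107) were lost.

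**Figure D2:**
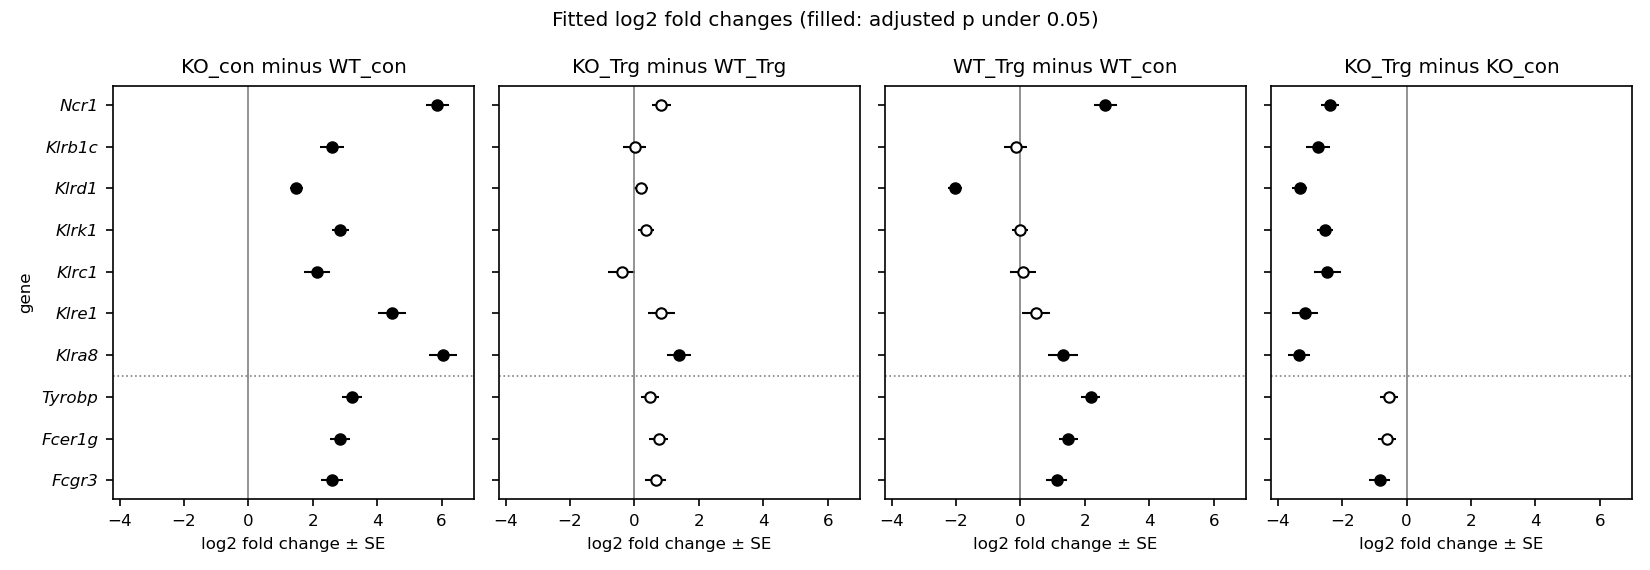
Fitted log2 fold change ± SE of each gene in 4 comparisons, with filled points at an adjusted p under 0.05 and a dotted line between the 7 receptors and the 3 others. All points are filled and to the right of 0 for KO_con minus WT_con, from 1.49 for Klrd1 to 6.04 for Klra8, and Klra8 alone is filled for KO_Trg minus WT_Trg.

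Between the WT cell types the 10 genes did not move as a group. In WT_Trg 5 were higher and 1 was lower, beside 39.1% and 33.3% of all genes called in those directions, 72.4% in all. The adaptors and the Fc receptor all rose: Tyrobp averaged 83.6 ± 7.52 CPM in WT_Trg against 18.5 ± 5.22 in WT_con, 4.53-fold higher (log2 2.18, SE 0.30, adjusted p = 5.15e-05). Fcer1g rose 2.81-fold (log2 1.49, SE 0.30, adjusted p = 0.000854) and Fcgr3 2.17-fold (log2 1.12, SE 0.34, adjusted p = 0.0108). With them, the 15 macrophage and monocyte genes, which summed to 449 to 705 CPM in WT_con, summed to 1457 to 1824 in WT_Trg, and 11 of 15 rose.

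The 7 receptors differed among themselves. Ncr1 rose from 0.692 ± 0.296 to 4.29 ± 0.594 CPM, 6.22-fold (log2 2.64, SE 0.35, adjusted p = 3.83e-05), and Klra8 from 0.446 ± 0.128 to 1.13 ± 0.109 CPM (log2 1.32, SE 0.46, adjusted p = 0.0218, called in 18 of 24 alternative settings). Klrd1 fell from 23.6 ± 2.24 to 5.69 ± 1.90 CPM (log2 -2.04, SE 0.22, adjusted p = 7.98e-06). Klrb1c (log2 -0.15, SE 0.36), Klrk1 (-0.03, SE 0.25), Klrc1 (0.07, SE 0.41) and Klre1 (0.48, SE 0.44) did not pass. The sum of the 11 NK cell markers, 47.2 to 61.4 CPM in WT_Trg, overlapped the 52.5 to 59.7 CPM of WT_con. Of the 10 tested, 5 rose and 1, Prf1, fell, from 35.7 ± 1.06 to 12.2 ± 2.40 CPM (median log2 0.91). Of all genes, 39.1% were called higher and 33.3% lower in this comparison.

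Within Coro1-/-, the receptors were lower in regulatory than in conventional T cells. All 7 fell, by a median of 2.75 on the log2 scale, and with Fcgr3 8 of the 10 genes were called lower, against 31.7% of all genes (67.8% were called, 36.1% as higher). Klra8 fell from 29.8 ± 11.8 to 2.94 ± 1.39 CPM (log2 -3.34, SE 0.35, adjusted p = 6.86e-06) and Klrd1 from 66.2 ± 11.3 to 6.63 ± 1.49 CPM (log2 -3.32, SE 0.23, adjusted p = 3.15e-07). Ncr1 fell from 40.4 ± 16.9 to 7.70 ± 0.729 CPM (log2 -2.39, SE 0.28, adjusted p = 1.63e-05), the smallest fall of the 7. Klrb1c, Klrk1, Klrc1 and Klre1 lay between, at -2.75, -2.52, -2.46 and -3.14. No KO_Trg library reached the KO_con range of any of the 7.

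The 3 others overlapped between KO_con and KO_Trg. Tyrobp averaged 172 ± 52.7 and 118 ± 46.0 CPM (log2 -0.54, SE 0.28, adjusted p = 0.104) and Fcer1g 116 ± 40.9 and 76.1 ± 28.5 CPM (log2 -0.60, SE 0.28, adjusted p = 0.078). Fcgr3 averaged 72.9 ± 19.9 and 41.0 ± 22.1 CPM and passed (log2 -0.83, SE 0.32, adjusted p = 0.0377), a call kept in 14 of 24 alternative settings. Without KO_Trg replicate 1, Tyrobp (log2 -0.91, adjusted p = 0.00792) and Fcer1g (log2 -0.95, adjusted p = 0.00794) passed as lower as well. With libraries scaled to the 6 T cell genes their estimates were 0.11 and 0.04, and neither passed. They passed without KO_con replicate 2 (adjusted p = 0.0336 and 0.0212). The 4 comparisons between pairs of groups share libraries, so their values are set side by side and not counted as independent.

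**Figure D3:**
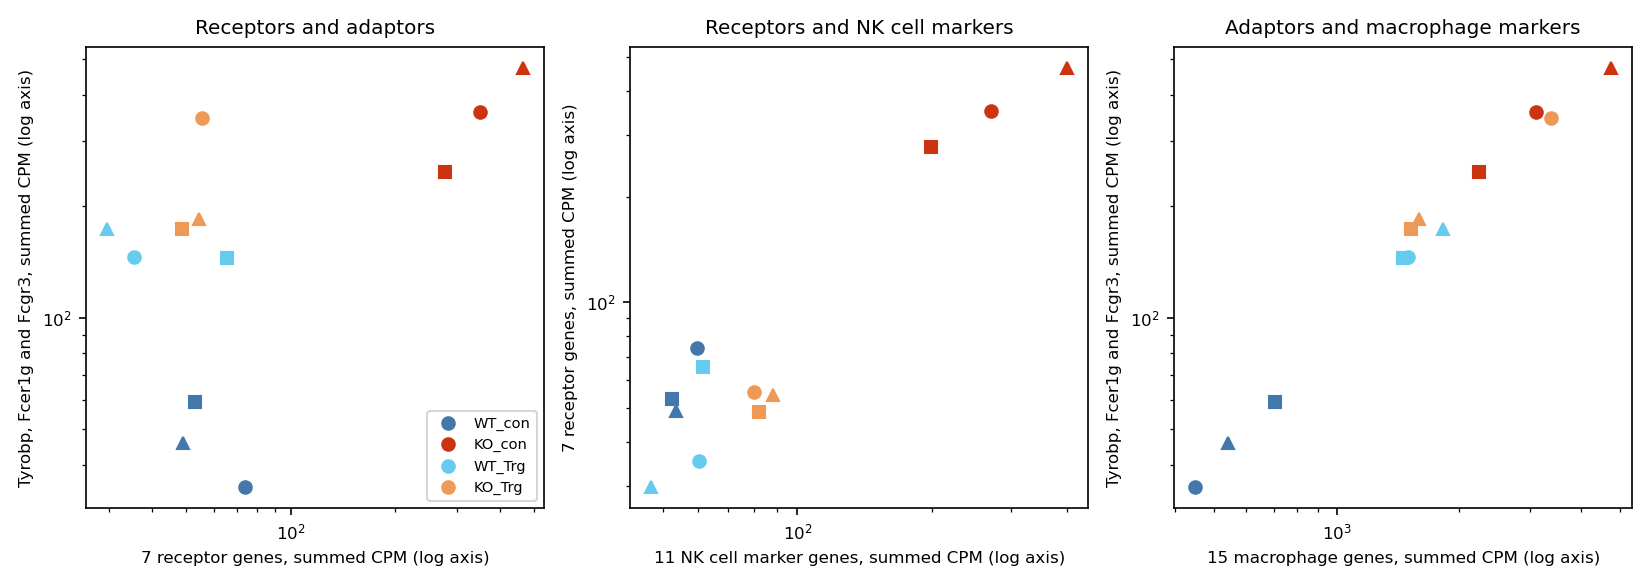
Summed CPM of each library on log axes for the 7 receptors, the 3 adaptor and Fc receptor genes, 11 NK cell markers and 15 macrophage and monocyte markers, with colour for the group and circle, square and triangle for replicates 1, 2 and 3. KO_con libraries are high on both sums (278 to 467 and 247 to 474 CPM), while Trg libraries have receptor sums of 29.7 to 65.5 CPM with adaptor sums of 145 to 346 CPM.

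The sums show the same division by library. The 7 receptors summed to 49.0 to 73.9 CPM in WT_con, 278 to 467 in KO_con, 29.7 to 65.5 in WT_Trg and 48.6 to 55.6 in KO_Trg. Tyrobp, Fcer1g and Fcgr3 summed to 34.7 to 59.1, 247 to 474, 145 to 174 and 174 to 346 CPM in the same order. Both Trg groups thus had receptor sums in or near the WT_con range and adaptor sums above it. KO_Trg replicate 1 had the highest adaptor sum of the Trg libraries, while its receptor sum of 55.6 CPM was close to the 48.6 and 54.5 CPM of the other KO_Trg libraries.

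Levels between genes were compared per kilobase of exon (CPM per kb). Tyrobp led in every group, at 27.7 in WT_con, 257 in KO_con, 125 in WT_Trg and 176 in KO_Trg. Klrd1 came next in WT_con at 18.4, level with Fcer1g, and the libraries of Tyrobp, Klrd1 and Fcer1g overlapped from neighbour to neighbour there. In KO_con it stood at 51.7, below Tyrobp and Fcer1g (132). In both Trg groups (4.44 and 5.17) it also stood below Fcgr3 and Klrb1c, and its libraries overlapped those of Klrb1c. Ncr1 was at 0.449 in WT_con, close to Klra8 (0.379) and Klre1 (0.341), whose libraries overlapped with it in turn, and at 26.2 in KO_con, where it overlapped Klra8 at 25.3. Klre1 was last in all 4 groups.

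Read ratios within a library do not depend on its scaling, and they differed between pairs of receptors. For each Klrd1 read there were 0.0289 ± 0.0104 Ncr1 reads in WT_con, 0.597 ± 0.162 in KO_con, 0.783 ± 0.138 in WT_Trg and 1.21 ± 0.313 in KO_Trg (SD, n = 3). The WT_con libraries, at most 0.0373, were below all 9 others, of which the lowest had 0.491. Klra8 and Klre1 per Klrd1 read were lowest in WT_con too, at 0.0193 and 0.0503, against 0.439 and 0.386 in KO_con. By contrast Klrk1 per Klrb1c read averaged 0.592, 0.681, 0.696 and 0.801 in the 4 groups, and the WT_Trg libraries alone ran from 0.524 to 0.914. The ratios are given as group means, some with SD or library values, and were not tested.

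**Figure D4:**
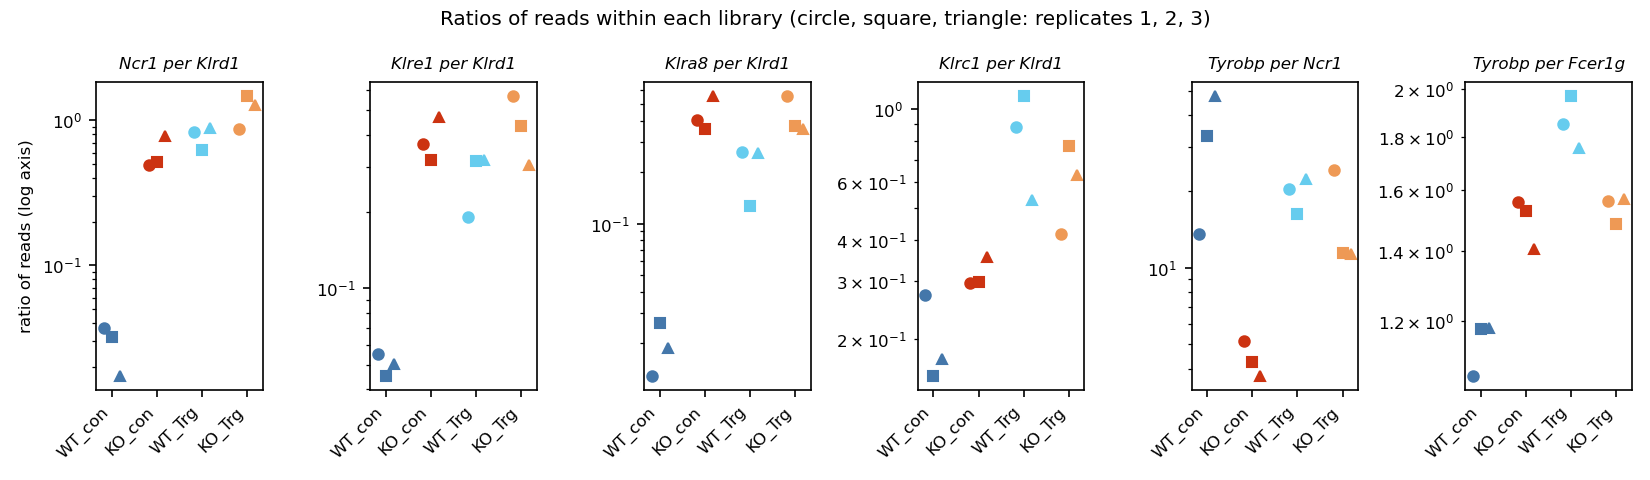
Ratio of reads of 2 genes within each library, on a log axis with its own range in each panel, for 6 pairs of genes and the 4 groups, with circle, square and triangle for replicates 1, 2 and 3. WT_con lies lowest for Ncr1 per Klrd1 (at most 0.0373), while Tyrobp per Ncr1 is lowest in KO_con (3.74 to 5.15).

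Tyrobp per Ncr1 read was 31.5 ± 17.2 in WT_con, 4.38 ± 0.718 in KO_con, 19.7 ± 3.08 in WT_Trg and 15.7 ± 7.45 in KO_Trg, so KO_con had the least adaptor for each NKp46 read and did not overlap the other groups. Tyrobp per Fcer1g read moved less, from 1.14 in WT_con to 1.86 in WT_Trg, and Fcgr3 per Fcer1g read lay between 0.519 and 0.740 in the group means. The genes that followed each member most closely over the 12 libraries were found by the root mean square difference of centred log2 CPM, among 13879 genes. The nearest non-members of Tyrobp were Fgr (0.188), Mgst1 (0.199) and Cd300c2 (0.223). Those of Fcer1g were Cd300c2 (0.153), Plxnb2 (0.170) and Nfam1 (0.180), and those of Fcgr3 were Sort1 (0.158), Adgre4 (0.169) and Pilra (0.170).

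The receptors had other neighbours. Klrb1c and Klrk1 were each nearest to Samd3 (0.241 and 0.242) and Il18rap (0.274 and 0.296), and lay 0.244 from each other. The next non-member was Arl4d for Klrb1c (0.308) and Il12rb2 for Klrk1 (0.343). Klre1 was nearest to Klra9 (0.275), Klra7 (0.325) and Arhgef37 (0.403), and Klra8 to Klra4 (0.422), Cyp2ab1 (0.472) and Klri2 (0.534). Klrc1 was nearest to Aqp9 (0.273), Arl4d (0.284) and Soat2 (0.285). The nearest to Ncr1 were Arhgef10l (0.414), Hp (0.418) and Gzma (0.465), and to Klrd1 Lcn4 (0.412), Muc13 (0.448) and Nmnat2 (0.498). Ncr1 and Klrd1 were the pair of members farthest apart, at 2.11. Fcer1g and Fcgr3 were the closest pair, at 0.221.

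The other genes of the system were read from 7 lists, chosen, like the 10 genes, with earlier results of these data known. In KO_con against WT_con, all 12 other Ly49 genes rose (median log2 4.68, against -0.05 over all genes), as did all 9 tested of 11 other Klr receptors (median 4.15). Examples are Klra4 at 5.70 (SE 0.42, adjusted p = 3.89e-06), Klra7 at 4.35 (SE 0.30, adjusted p = 2.68e-06), Klra14-ps at 5.63 (SE 0.41, adjusted p = 3.76e-06) and Klrb1a at 5.05 (SE 0.39, adjusted p = 4.94e-06). The 12 Ly49 genes include the pseudogenes Klra13-ps and Klra14-ps. In all of WT_con, Klra5, Klra10 and Klra17 had only 4, 5 and 2 reads. Stretches shared among these 12 genes were not counted, so their rises may not be separate. Of 21 other receptors found on NK cells 17 rose and 2 fell (median 2.13), with Cd244a at 4.16, Itgam at 3.72 and Itga2 at 2.13. These receptors are not all NK-specific: Fcgr1 is also among the macrophage and monocyte genes, and Siglech among the dendritic cell genes. Neutrophil and macrophage sums rose in the same comparison. Their part in the rises of these receptors, Itgam among them, was not tested. Of 15 effector genes 12 rose (median 2.10), led by the granzymes Gzma at 4.90 and Gzmb at 3.67, and of 13 transcription factors 8 rose and 1 fell (median 1.26), with Nfil3 at 2.24 and Zeb2 at 2.73.

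Signalling proteins and ligands had medians near that of all genes. Of 19 tested signalling genes 7 rose and 6 fell in KO_con (median -0.11), beside 23.3% of all genes called higher and 25.4% lower. Those with the smallest p were Lat2 (3.21), Plcg2 (3.57) and Syk (2.98), which B cells and myeloid cells use as well. Cd247, named after its value was seen, fell by 0.97 on the log2 scale, from 498 ± 16.8 to 253 ± 29.3 CPM. All 6 T cell genes used for scaling were called lower in KO_con too. With libraries scaled to them, Cd247 fell by 0.39 (adjusted p = 0.0207). Of 8 tested ligand genes 2 rose and 1 fell (median 0.05), with Cadm1 at 1.95, Ulbp1, an NKG2D ligand, at 0.62 and Pvr at -0.54, which was 0.05 with libraries scaled to the 6 T cell genes. With that scaling 12 signalling genes rose and 1 fell, and 6 ligand genes rose, beside 44.0% of all genes called higher and 0.377% lower.

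In KO_Trg against WT_Trg, where 4.01% of all genes were called higher and 3.82% lower, the lists held from 1 to 4 calls each. Of 12 Ly49 genes 1 rose, Klra4 at 2.04 (SE 0.38, adjusted p = 0.0109), and 2 of 9 Klr genes, Klrb1b at 1.76 (SE 0.32, adjusted p = 0.0107) and Klrb1a at 1.24 (SE 0.34, adjusted p = 0.0482). Of 15 effector genes 3 rose, with Gzma at 1.52 (SE 0.28, adjusted p = 0.0105), Ccl5 at 1.26 and Ctsw at 0.58. Of 13 transcription factors 1 rose, Runx3 at 0.46. Among signalling genes 1 rose and 3 fell, with Hcst at -0.67 (SE 0.17, adjusted p = 0.0406) and Fyn at -0.45. Of 8 ligand genes 2 fell, Pvr at -0.49 and Cd48 at -0.43. Of 21 other receptors 1 rose, Cd7 at 0.52, and 2 fell, Slamf6 at -0.66 and Cd226 at -0.64. With libraries scaled to the 6 T cell genes, Hcst stood at -0.15, Fyn at 0.08, Pvr at 0.05 and Cd48 at 0.12, none called, and 6 Ly49, 5 Klr and 7 effector genes rose, beside 32.1% of all genes.

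Between WT_Trg and WT_con, 7 of 9 Klr genes rose (median 1.84, beside 39.1% of all genes called higher), among them Klrg1 at 4.11 and Klrb1b at 4.03, whereas 2 of 12 Ly49 genes did, Klra17 at 4.60 and Klra2 at 1.41. The estimate for Klra17 rests on few reads, 2 in all of WT_con and 52 in all of WT_Trg (SE 0.70). Lat2 (5.28), Plcg2 (5.41) and Syk (4.92), and the inhibitory Fc receptor Fcgr2b (5.68), rose beside the B cell gene sums given above. Between KO_Trg and KO_con, 11 of 12 Ly49 genes fell (median -3.08, beside 31.7% of all genes called lower) and 5 of 9 Klr genes fell with 2 rising (median -1.97). Of 15 effector genes 11 fell and 2 rose (7 and 2 with libraries scaled to the 6 T cell genes), with Prf1, the gene of perforin, at -1.94. The difference of the genotype effects was called lower for 10 of 12 Ly49 genes, 7 of 9 Klr genes, 16 of 21 other receptors (10 with that scaling) and 10 of 15 effector genes, beside 12.4% of all genes.

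**Figure D5:**
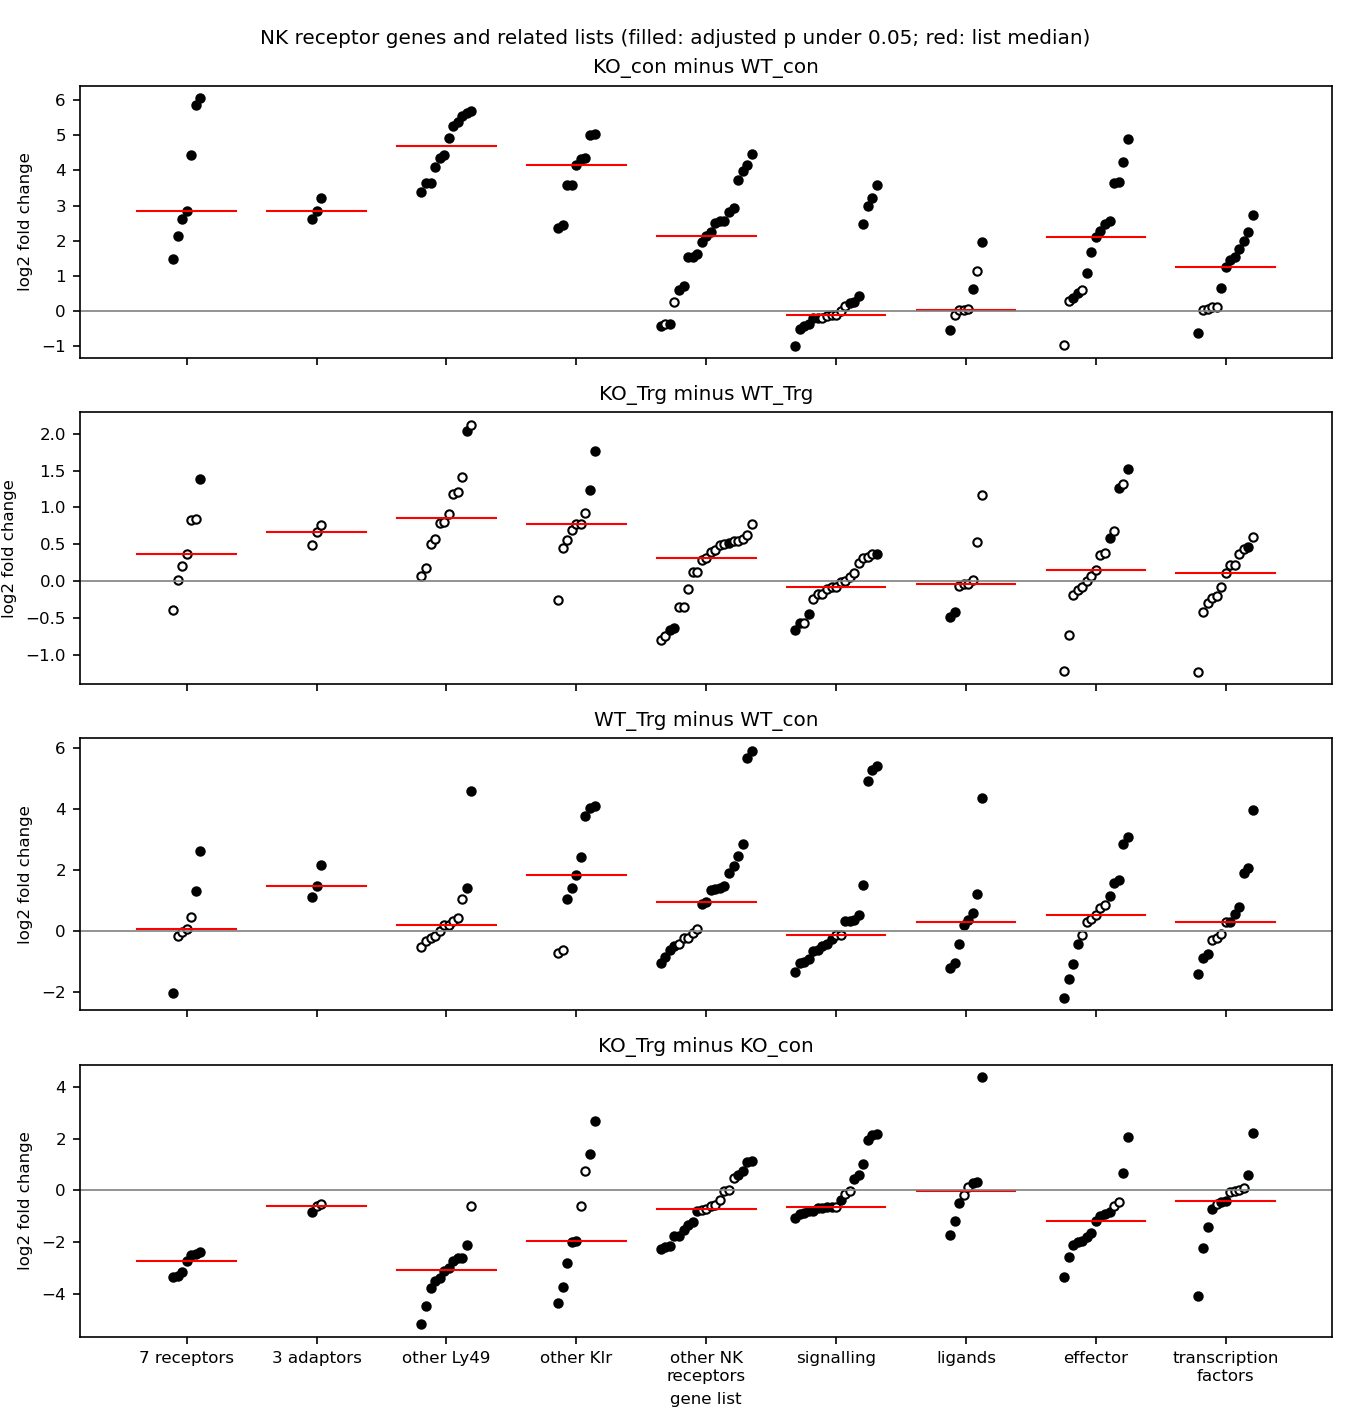
Log2 fold change of each gene of 9 lists (the 7 receptors, the 3 adaptor and Fc receptor genes and 7 related lists) in 4 comparisons, each with its own axis range, with filled points at an adjusted p under 0.05 and a red line at the list median. In KO_con minus WT_con the Ly49 and Klr lists lie highest (medians 4.68 and 4.15), and the signalling and ligand medians lie near 0 (-0.11 and 0.05).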

How the data were processed

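Polyadenylated RNA of conventional and regulatory T cells from WT and Coro1-/- mice was sequenced in 12 libraries, 3 in each of 4 groups taken from the labels. The deposited values are unnormalised read counts, 1 row per Ensembl gene, made by the authors with STAR on GRCm38 per the submitters' processing notes and counted reverse-stranded per the file name; the annotation release is not given in the sources used here. Its 4 tallies of reads given to no gene, which include multimapping reads, were left out, so genes with close copies can be undercounted. Symbols matched 45143 of 45706 IDs, with at least 99.9% of the counts.

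Counts were tested with edgeR 4.0.16 (limma 3.58.1, R 4.3.3): 1 fit of all 12 libraries with a term per group, filterByExpr (minimum count 10, minimum total 15), TMM and the two-sided quasi-likelihood F test, with Benjamini-Hochberg adjustment over 15922 genes at 0.05. The biological coefficient of variation was 0.155. CPM use TMM-scaled library sizes. Standard errors were taken as the log2 fold change over the square root of F. The fit was tested on simulated counts. DESeq2 1.42.0 served as an alternative, and figures were drawn with matplotlib 3.10.9.

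The members and lists were chosen with earlier results of these data known. Beside the 10 genes, the text names Coro1a and the 3 nearest non-members of each gene (at least 1 CPM in a group mean, prior count 2). Genes of the related lists given with their changes were taken from the 3 with the smallest p in a comparison, unless marked otherwise. Not all 3, nor every list, were printed for each comparison. Shared stretches and exon lengths come from GENCODE, promoter windows from RefSeq.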

Additional observations from a re-analysis of the deposited data

Results flagged for a closer look

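The effect of Coro1-/- differed between regulatory and conventional T cells for each of the 10 genes, by a test of the difference itself in the fit of all 12 libraries (21.3% of all genes were called in that test). On the log2 scale, the change in Trg minus the change in con was -5.03 for Ncr1, -2.60 for Klrb1c, -1.29 for Klrd1, -2.49 for Klrk1, -2.53 for Klrc1, -3.62 for Klre1 and -4.66 for Klra8. It was -2.72 for Tyrobp, -2.09 for Fcer1g and -1.95 for Fcgr3. In the same test, 7 of 10 NK cell markers and 8 of 15 macrophage and monocyte markers were called lower, beside 12.4% of all genes. NK cell markers summed to 199 to 401 CPM in KO_con and 80.1 to 88.2 in KO_Trg. The sums of macrophage and monocyte markers overlapped between these groups (2240 to 4744 and 1526 to 3363 CPM). The part of these cells in the differences was not tested.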

How the results depend on the processing

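In KO_con against WT_con all 10 genes were called in every setting and with each library left out. For KO_Trg against WT_Trg the count of genes called, 1 as reported, was 7 with libraries scaled to 6 T cell genes, 2 with DESeq2, and 0 with limma-voom, with the replicate block, with only the groups compared, without the libraries holding both Xist and Y-linked reads, at an adjusted p of 0.01 and with a 1.5-fold minimum. It ranged from 0 to 2 with each library left out. The other counts ran from 5 to 7 (WT_Trg against WT_con), 7 to 10 (KO_Trg against KO_con) and 10 to 10 (the difference) with each library left out. The difference was called for 8 of the 10 genes with libraries scaled to 6 T cell genes and with a 1.5-fold minimum, and for 7 at an adjusted p of 0.01. Scaling to the T cell genes moved the median of all genes to 0.53 in both genotype comparisons, 0.71 in WT and 0.62 in KO between cell types, and the split of all genes in KO_con against WT_con from 3706 higher and 4043 lower to 7006 and 60; upper-quartile factors gave 4057 and 2840. With it, Klrk1 (0.57) and Klrb1c (0.41) in WT_Trg against WT_con, Klrc1 (0.17), Fyn (0.0786), Pvr (0.0471), Cd48 (0.12) and Ets1 (0.22) in KO_Trg against WT_Trg, Tyrobp (0.11) and Fcer1g (0.0405) in KO_Trg against KO_con and Pvr (0.0489) in KO_con against WT_con changed sign. In WT_Trg against WT_con, Klrk1 was also 0.000905 with upper-quartile factors and 0.00688 with only the groups compared, and Klrc1 was -0.0310 with limma-voom. Without the libraries holding both Xist and Y-linked reads, Klrk1 (0.15) and Klrb1c (0.18) changed sign there, and Klrb1c (-0.31) and Klrd1 (-0.11) did in KO_Trg against WT_Trg. With each library left out, Klrb1c ran from -0.78 to 0.18, Klrk1 from -0.37 to 0.16 and Klrc1 from -0.60 to 0.46 in WT_Trg against WT_con, and Klrb1c from -0.32 to 0.63 and Klrc1 from -0.74 to 0.28 in KO_Trg against WT_Trg. The cause of these changes was not tested. Replicate numbers did not pair the libraries: of 18 same-numbered pairs the correlations ran from -0.518 to 0.176, and 5 correlated best with their own number. The replicate block changed no other count of the 10 genes. Klra8 in WT_con, at 10 to 18 reads, was limited by depth.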
